A study of Mus musculus with 6 samples.

Results

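Tmem255a, Klhl4, Rasgrp3, Ptprm, Sparcl1 and Gng11 are 6 genes, of 19937 measured, that were chosen by how far their array signal in c-kit-positive cells lay below that in c-kit-negative cells, and because they belong to none of the better-known vascular or blood gene families. Each was read from the 1 probe set that the platform's annotation assigned to that gene alone. The choice used the same 6 arrays and the same contrast that are shown here, so the size of their differences is a description and carries no test. The cells came from CD1 mouse embryos at stage E11.5, dissected to the AGM (aorta, gonads, mesonephros), in whose aorta blood stem cells form. After collagenase digestion (0.1%), the sort kept cells with surface CD31, encoded by Pecam1, and without the blood markers CD45, encoded by Ptprc, and Ter119, and divided them by c-kit, the receptor of stem cell factor. There were 3 arrays of c-kit-positive cells and 3 of c-kit-negative cells, all from 1 strain and stage and labelled T0, with no allele, transgene or drug named. The labels name biological replicates but give no number of embryos behind each. The p-values therefore set each difference against the spread between these arrays only. Arrays are numbered by the labels' replicate numbers.

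What is known of the 6 genes comes mainly from their protein families. Klhl4 encodes a kelch-like protein, a family whose members carry a BTB domain and kelch repeats and often bring substrates to cullin 3 ubiquitin ligases. Rasgrp3 encodes an exchange factor that loads Ras and Rap with GTP and is recruited to membranes by diacylglycerol. Ptprm encodes a receptor tyrosine phosphatase that binds its own kind on neighbouring cells through an extracellular part with a MAM domain and acts at cell junctions, in endothelium among other tissues. Sparcl1 (hevin) is a secreted matricellular glycoprotein of the SPARC family, Gng11 is a gamma subunit of heterotrimeric G proteins that is anchored by a farnesyl lipid, and Tmem255a is predicted to span the membrane several times and has little described function.

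The RefSeq promoter table held windows for 4 of the 6 genes (Tmem255a, Klhl4, Rasgrp3 and Ptprm), each running from 250 bases before to 50 bases after an annotated start. Since these genes were all lower in c-kit-positive cells, their windows are shown for how they differ in sequence. The sequences are RefSeq's for build GRCm38.p6, written 5′ to 3′ on the gene's strand, with CG dinucleotides in capitals. The Tmem255a window is chrX:38252432-38252731 on the minus strand and that of Klhl4 is chrX:114474083-114474382 on the plus strand. Rasgrp3 has 2 windows, of which the one shown is chr17:75435655-75435954 on the plus strand. The Ptprm window is chr17:67354410-67354709 on the minus strand.
Tmem255a: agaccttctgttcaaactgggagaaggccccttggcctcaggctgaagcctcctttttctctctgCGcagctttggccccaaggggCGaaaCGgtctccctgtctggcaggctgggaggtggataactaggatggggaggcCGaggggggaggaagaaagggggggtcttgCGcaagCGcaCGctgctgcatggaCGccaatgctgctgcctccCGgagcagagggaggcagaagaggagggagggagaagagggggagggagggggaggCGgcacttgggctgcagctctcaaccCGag
Klhl4: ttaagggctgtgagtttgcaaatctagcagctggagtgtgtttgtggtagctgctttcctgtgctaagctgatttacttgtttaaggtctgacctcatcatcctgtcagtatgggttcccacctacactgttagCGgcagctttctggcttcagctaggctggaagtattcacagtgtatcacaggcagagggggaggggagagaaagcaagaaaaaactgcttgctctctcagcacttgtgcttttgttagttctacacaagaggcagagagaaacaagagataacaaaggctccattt
Rasgrp3: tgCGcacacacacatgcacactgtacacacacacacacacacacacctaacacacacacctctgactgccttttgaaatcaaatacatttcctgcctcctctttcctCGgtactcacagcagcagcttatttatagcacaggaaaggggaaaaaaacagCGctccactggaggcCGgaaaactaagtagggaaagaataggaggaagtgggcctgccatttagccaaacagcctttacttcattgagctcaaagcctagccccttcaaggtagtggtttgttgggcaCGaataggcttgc
Ptprm: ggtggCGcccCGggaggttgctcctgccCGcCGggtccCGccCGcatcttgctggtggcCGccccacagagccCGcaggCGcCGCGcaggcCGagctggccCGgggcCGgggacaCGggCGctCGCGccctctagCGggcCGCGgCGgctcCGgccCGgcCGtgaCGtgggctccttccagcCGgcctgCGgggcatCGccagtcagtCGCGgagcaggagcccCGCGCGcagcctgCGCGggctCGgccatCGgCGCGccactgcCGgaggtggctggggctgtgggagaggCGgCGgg

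The Ptprm window held 43 CG dinucleotides and was 80.7% G or C, whereas the Klhl4 window held 1 and was 46.3% G or C. The Tmem255a window held 11 CG dinucleotides at 64% G or C, the Rasgrp3 window shown held 5 at 48.3%, and the other Rasgrp3 window held 9 at 52.7%. Over all 32851 windows of the table the median was 7 CG dinucleotides and 52.67% G or C. In that ranking 97.4% of windows had fewer CG dinucleotides than Ptprm and 5.43% had fewer than Klhl4, so the windows of these genes covered nearly the whole range. Short motifs, 1 for each of 6 classes of factors known from blood and vessels, were searched on both strands of the 5 windows. Other forms of the sites that these factors bind were not searched. The ETS motif CCGGAA was present once, in the Rasgrp3 window shown, with its first base 77 bases before the start. Of all windows 14.9% held it. The GATA motif AGATAA was present once, in the Klhl4 window at base 31 after the start, where 11.2% of all windows held it. No window of the 5 held the AP-1 motif TGANTCA, the FOX motif TGTTTAC, the SOX motif AACAAT or the KLF motif CACCC. Of all windows 7.81%, 3.65%, 10.7% and 57.5% held these. None of the 6 motifs contains another. A match or its lack says only which letters stand in a window, not whether a factor could bind there.

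Array values are log2 RMA values, so a difference of 1 is a doubling. Across the 34760 probe sets the array medians lay between 5.42 and 5.52 and the upper quartiles between 6.91 and 6.95. Arrays of 1 population correlated at 0.976 to 0.981 over the 19937 genes and arrays of different populations at 0.946 to 0.953, a description in which genes are not independent. Of all genes, limma called 937 (4.7%) lower and 540 (2.71%) higher in c-kit-positive cells (adjusted p under 0.05). With 1 array left out, between 670 and 745 were lower. The count of higher genes was 310, 369 and 287 without c-kit-positive arrays 1, 2 and 3, and 276, 292 and 323 without c-kit-negative arrays 1, 2 and 3. Kit, the gene of the sort, was at 9.59, 9.54 and 9.53 on the c-kit-positive arrays and 8.27, 8.21 and 8.19 on the c-kit-negative arrays, as labelled. Pecam1, which encodes the CD31 of the gate, was lower in c-kit-positive cells, at 9.13 ± 0.16 against 10.02 ± 0.02 (SD, n = 3 each, difference -0.90, adjusted p = 0.00597, limma). Ptprc RNA gave signal in both, at 8.52 ± 0.13 and 8.75 ± 0.60 (SD, n = 3 each), though the sort left CD45-bearing cells out.

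**Figure D1:**
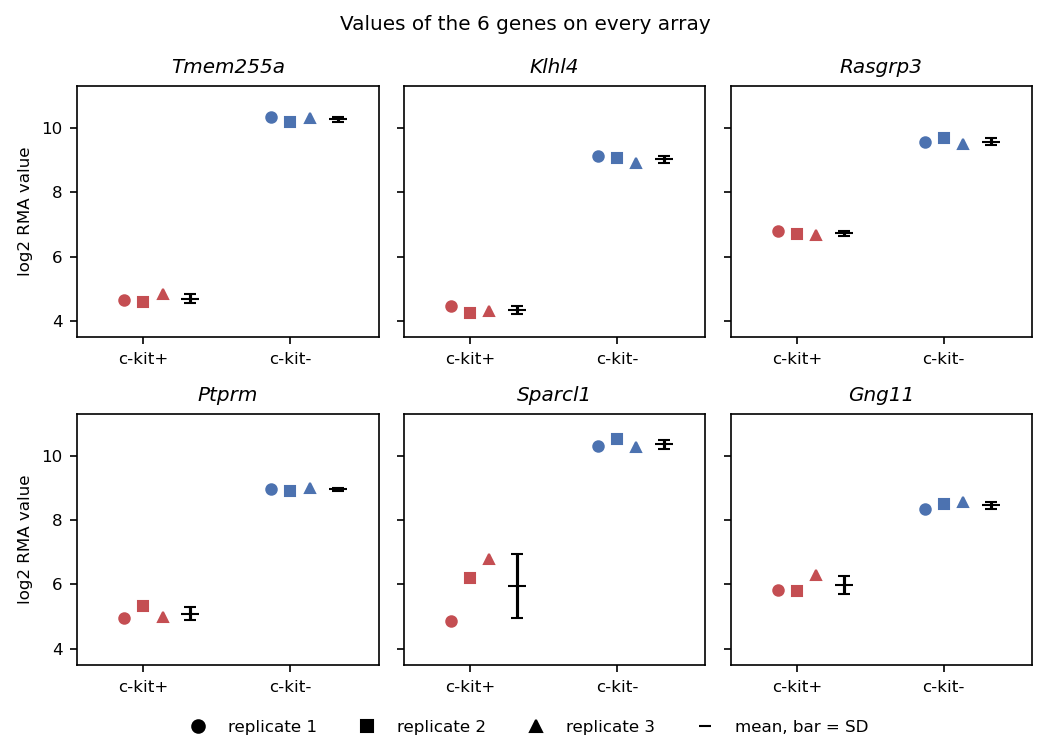
Log2 RMA value of each of the 6 genes (vertical axis) on the 3 c-kit-positive arrays (red, left) and the 3 c-kit-negative arrays (blue, right), with symbols for replicates and a bar for the mean ± SD (n = 3). No c-kit-positive value reached a c-kit-negative one, and Sparcl1 was the most spread, from 4.86 to 6.80 among c-kit-positive arrays.

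Tmem255a had the lowest difference, c-kit-positive minus c-kit-negative, of all 19937 genes. It was at 4.67, 4.59 and 4.84 on c-kit-positive arrays 1, 2 and 3 and at 10.33, 10.19 and 10.29 on c-kit-negative arrays 1, 2 and 3. The arrays of each population lay within 0.26 (c-kit-positive) and 0.14 (c-kit-negative) of each other, against a gap of 5.34 between the closest arrays of the 2 populations. Means were 4.70 ± 0.13 and 10.27 ± 0.07 (SD, n = 3 each), a difference of -5.57 or 47.5-fold lower. In such bulk samples fewer cells of a type and less RNA per cell cannot be told apart.

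Klhl4 ranked 5 in the same order. Its values were 4.48, 4.24 and 4.31 on the c-kit-positive arrays and 9.12, 9.05 and 8.91 on the c-kit-negative arrays. The gap between the closest arrays was 4.43, and the means were 4.34 ± 0.12 and 9.03 ± 0.11 (SD, n = 3 each), a difference of -4.68. Like Tmem255a, Klhl4 lies on the X chromosome.

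Sparcl1, the secreted matrix-associated protein, ranked 8 and was the least even. It was at 4.86, 6.21 and 6.80 on c-kit-positive arrays 1, 2 and 3 and at 10.29, 10.52 and 10.26 on c-kit-negative arrays 1, 2 and 3. Array 1 was thus the lowest of the c-kit-positive arrays by 1.36, while the 3 c-kit-negative arrays lay within 0.26 of each other. Its SD among c-kit-positive arrays was 0.997, larger than that of 99.6% of all genes, for which the median SD was 0.19. The difference was -4.40 (5.96 ± 0.997 against 10.36 ± 0.14, SD, n = 3 each). It became -3.85 without c-kit-positive array 1 and -4.82 without c-kit-positive array 3.

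Ptprm, the junctional phosphatase, ranked 17. It was at 4.96, 5.31 and 5.00 on the c-kit-positive arrays and at 8.95, 8.91 and 9.0 on the c-kit-negative arrays. The c-kit-negative arrays were nearly level, with an SD of 0.044 that was below that of all but 4.95% of genes. The difference was -3.86, or 14.5-fold lower (5.09 ± 0.19 against 8.95 ± 0.04, SD, n = 3 each).

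Rasgrp3 and Gng11, the 2 signalling genes, had the smaller differences and kept a signal above the array median in both populations. Rasgrp3, ranked 63, was at 6.79, 6.71 and 6.66 on the c-kit-positive arrays and at 9.55, 9.69 and 9.48 on the c-kit-negative arrays. It was the most even of the 6 among c-kit-positive arrays, with an SD of 0.0647, and its difference was -2.86 or 7.24-fold lower. Gng11, ranked 97, was at 5.81, 5.80 and 6.30 on the c-kit-positive arrays and at 8.35, 8.48 and 8.56 on the c-kit-negative arrays. Its groups were 2.05 apart at the closest arrays, with a difference of -2.49 (5.97 ± 0.28 against 8.46 ± 0.11, SD, n = 3 each).

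Of the 18 c-kit-positive values, 10 lay below the array medians of 5.42 to 5.52, those of Tmem255a, Klhl4 and Ptprm and that of Sparcl1 on array 1. The other 8, of Rasgrp3, Gng11 and Sparcl1 on arrays 2 and 3, lay above those medians. All 18 c-kit-negative values lay above the upper quartiles. The files carry no detection calls, so a dim signal is not called absence, and array background shrinks the folds of dim genes. Levels of different probe sets cannot be set against each other, so only differences are ordered here. The 3 values of each population lay apart for all 6 genes, c-kit-positive lower, which follows from how the genes were chosen. Of all genes, 10.6% were apart with c-kit-positive lower, and 26.8% in either direction.

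**Figure D2:**
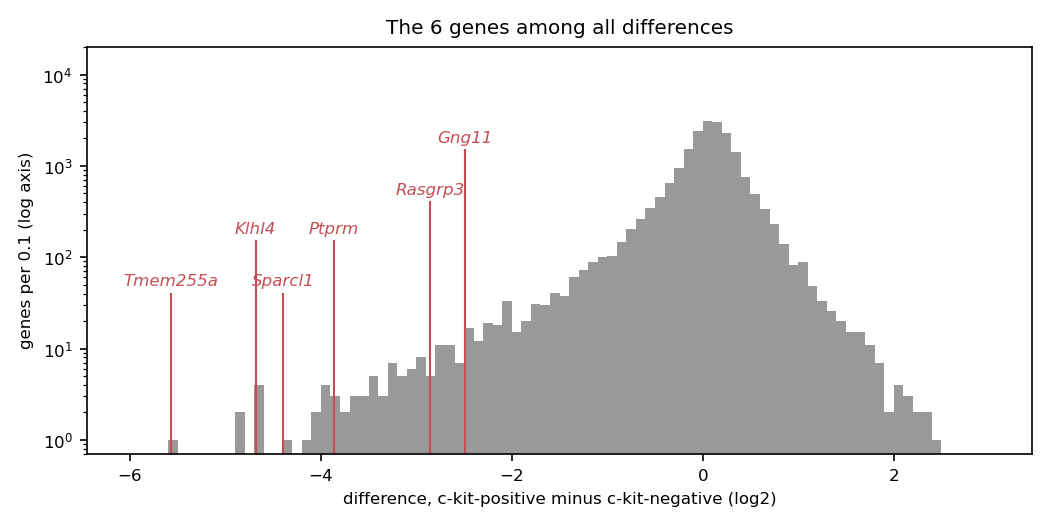
Number of genes (vertical axis, log scale, bins of 0.1) by difference, c-kit-positive minus c-kit-negative (horizontal axis, log2), for all 19937 genes, with red lines at the 6 genes. They run from -5.57 for Tmem255a to -2.49 for Gng11, in a left tail in which 193 genes (0.968%) were lower by at least 2.

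The 6 genes were compared with each other, and with every gene, by the root mean square difference over the 6 arrays between log2 values centred on each gene's mean. A small value means a like pattern and a like size of difference, and since all these genes differ mainly between the 2 populations, the measure follows mostly that size. Among the 15 pairs of the 6 genes, Rasgrp3 and Gng11 were closest (0.282) and Tmem255a and Gng11 farthest apart (1.55). Klhl4 was nearest to Ptprm (0.454) and Tmem255a (0.461). For Tmem255a the 3 nearest genes were Aplnr, the apelin receptor (0.405), Kdr, the main VEGF receptor of endothelium (0.422), and Klhl4 (0.461). For Klhl4 they were Kdr (0.228), Aplnr (0.236) and the imprinted gene Mest (0.24).

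Rasgrp3 was nearest to Itga2, an integrin collagen receptor subunit (0.12), Clec14a, an endothelial C-type lectin (0.127), and Kitl, the ligand of c-kit (0.133). Kitl was at 3.47, 3.85 and 3.57 on the c-kit-positive arrays and 6.49, 6.64 and 6.46 on the c-kit-negative arrays. Ptprm was nearest to Flrt2, a membrane guidance protein (0.148), the laminin gene Lama4 (0.164) and Nrp1, a VEGF and semaphorin co-receptor (0.166). Gng11 was nearest to Prrx1, a transcription factor of mesenchyme (0.154), Ptprd, another receptor phosphatase (0.172), and Sox18, an endothelial transcription factor (0.173).

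Sparcl1 was nearest to Cdh5, which encodes VE-cadherin (0.303), then Emcn, an endothelial sialomucin (0.398), and Mest (0.46). Cdh5 was at 5.91, 6.51 and 7.02 on c-kit-positive arrays 1, 2 and 3 and at 11.15, 11.33 and 11.01 on c-kit-negative arrays 1, 2 and 3. On c-kit-positive arrays both genes were thus lowest on array 1 and highest on array 3. On c-kit-negative arrays both were highest on array 2 and lowest on array 3. Cdh5 was picked as nearest over these same 6 arrays, so a shared order follows in part from the pick. Emcn was also lowest on c-kit-positive array 1, at 5.28, with 6.002 and 6.008 on arrays 2 and 3, but was highest on c-kit-negative array 3, at 10.58, with 10.27 and 10.40 on arrays 1 and 2.

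Family relatives of the 6 genes were called in both directions. Of 63 measured relatives, which had no part in the choice of the 6 genes, 5 were lower (7.94%) and 6 higher (9.52%) in c-kit-positive cells, beside 4.7% and 2.71% of all genes (limma, adjusted p under 0.05). Their median difference was -0.04, against 0.072 over all genes. The 5 lower relatives were Sparc, Fstl1, Gngt2, Klhl5 and Ptprk. The count of higher relatives was 0, 1 and 2 without c-kit-positive arrays 1, 2 and 3, and 2, 1 and 2 without c-kit-negative arrays 1, 2 and 3. The count of lower relatives was 7, 4 and 4 without c-kit-positive arrays 1, 2 and 3, and 4, 5 and 4 without c-kit-negative arrays 1, 2 and 3.

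**Figure D3:**
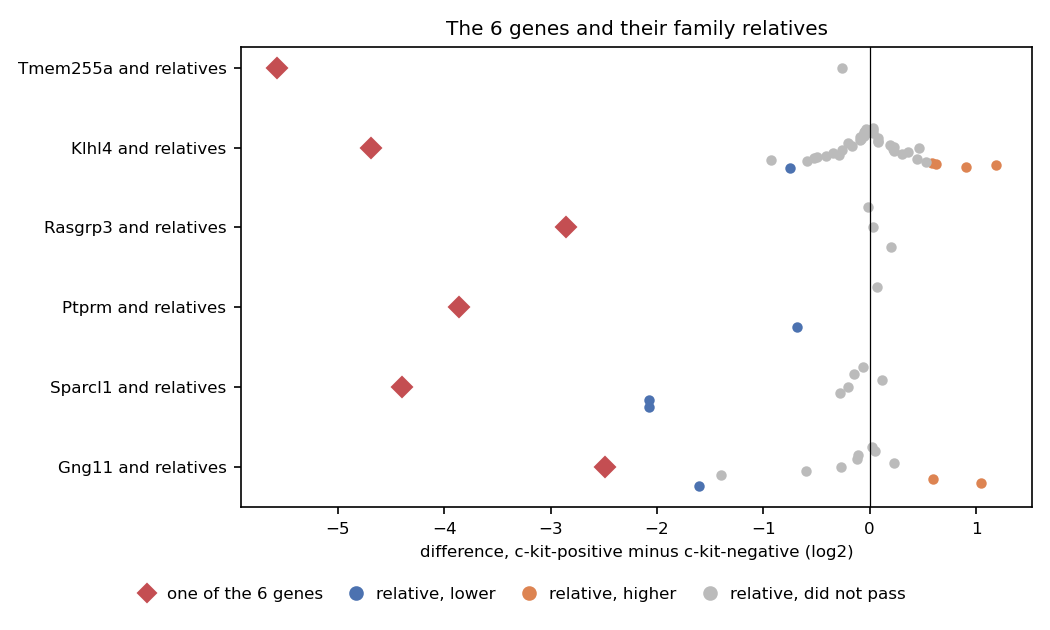
Difference, c-kit-positive minus c-kit-negative (horizontal axis, log2), for each of the 6 genes (red diamonds) and their measured relatives (circles, spread vertically within a family for legibility), coloured by limma call at an adjusted p under 0.05. The diamonds run from -5.57 to -2.49 because the 6 genes were chosen for low differences, and the relatives, which were not, lie between -2.08 (Fstl1) and 1.19 (Ipp).

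The SPARC family held the 2 relatives with the largest falls. Sparc, a collagen-binding matricellular protein, was at 9.44, 9.20 and 9.77 on the c-kit-positive arrays and 11.53, 11.63 and 11.48 on the c-kit-negative arrays, a difference of -2.07 ± 0.17 (SE, adjusted p = 0.000227, limma). Fstl1, a secreted protein with a follistatin domain like that of SPARC, was at 5.90, 6.48 and 5.83 on the c-kit-positive arrays and 8.25, 7.92 and 8.27 on the c-kit-negative arrays (-2.08 ± 0.20, SE, adjusted p = 0.000599, limma). The other 5 measured members, Smoc1, Smoc2, Spock1, Spock2 and Spock3, did not pass, with differences between -0.28 and 0.12. Both falls kept their call in all 12 alternatives run.

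Genes of 12 further lists, called partners here, work with the 6 genes or in the same step, or belong to a wider class of like proteins. The wider classes are other receptor phosphatases, other matricellular proteins and other Ras and Rap exchange factors, with 5, 3 and 1 of the falls below. Of 120 measured partners, 25 were lower (20.8%) and 4 higher (3.33%), beside 4.7% and 2.71% of all genes, with a median difference of -0.12. The 4 became 2, 2 and 3 without c-kit-positive arrays 1, 2 and 3, and 1, 1 and 2 without c-kit-negative arrays 1, 2 and 3. Among other matricellular genes, which like Sparcl1 are secreted into the matrix, 3 of 16 fell and 0 rose. Ccn1 (CYR61), a secreted protein induced in growing vessels, was lower by 3.09 on the log2 scale (values 5.81, 6.60 and 5.78 against 8.82, 8.97 and 9.66, adjusted p = 0.000447, limma). Thbs1, a thrombospondin that inhibits vessel growth, differed by -2.23 ± 0.31 (SE, adjusted p = 0.00399, limma). Postn, made by mesenchyme, stood at 4.54, 5.13 and 5.52 on the c-kit-positive arrays and 6.42, 9.50 and 7.53 on the c-kit-negative arrays (adjusted p = 0.0434, limma). It did not pass without c-kit-positive array 1, 2 or 3 or c-kit-negative array 3, when its adjusted p was 0.137, 0.0982, 0.08 and 0.0919, nor with quantile normalization (0.0507).

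G protein gamma genes went in different directions. Gngt2, which like Gng11 is farnesylated, was at 6.18, 5.97 and 7.06 on the c-kit-positive arrays and 8.03, 8.09 and 7.91 on the c-kit-negative arrays, a difference of -1.61 ± 0.26 (SE, adjusted p = 0.00819, limma). Gng3, a neuronal gamma subunit, was higher by 1.05 ± 0.22 (SE, adjusted p = 0.0242, limma) and Gng13 by 0.60 ± 0.14 (SE, adjusted p = 0.0429, limma). Neither rise passed without c-kit-positive array 1 or 3 or c-kit-negative array 2. Gng13 also did not pass without c-kit-positive array 2 or c-kit-negative array 1, nor with a trend and robust prior in limma (0.0662), and Gng3 did not pass without c-kit-negative array 3. Of 8 further gamma genes that did not pass, Gng8 was at 4.33, 4.19 and 4.64 on the c-kit-positive arrays and 5.27, 6.73 and 5.33 on the c-kit-negative arrays (adjusted p = 0.0569, limma), and it passed without c-kit-negative array 2, which held the highest value (adjusted p = 0.0322), with a trend and robust prior (0.0425) and with the filter on dim genes (0.0473).

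Gamma subunits work in complexes with beta and alpha subunits. None of the 5 beta subunit genes passed limma's test, with differences between -0.33 and 0.17. Gnb4, the member of smallest p, was at 6.31, 6.18 and 5.99 on the c-kit-positive arrays and 6.45, 6.43 and 6.61 on the c-kit-negative arrays. Of 15 alpha subunit genes 2 fell and 2 rose (13.3% each), beside 4.7% lower and 2.71% higher of all genes. Gna11, which couples receptors to phospholipase C, differed by -1.07 ± 0.17 (SE, adjusted p = 0.00704, limma) and Gnai2, which inhibits adenylyl cyclase, by -0.87 ± 0.15 (SE, adjusted p = 0.0101, limma). Gna14 and Gna15, of the same class as Gna11, were higher by 0.78 and 0.94 (adjusted p = 0.0272 and 0.0351, limma). Both rises were lost without c-kit-positive array 2 or c-kit-negative array 1 or 2, that of Gna14 also without c-kit-positive array 1 or c-kit-negative array 3, and that of Gna15 also without c-kit-positive array 3. None of 6 genes of prenyl lipid attachment (farnesyl or geranylgeranyl) and its follow-up steps passed. Pggt1b had the smallest p there, and it serves the attachment of geranylgeranyl, not of the farnesyl that Gng11 carries. It was at 6.09, 6.04 and 7.51 on the c-kit-positive arrays and 7.01, 7.28 and 7.49 on the c-kit-negative arrays. Without c-kit-positive array 3 it was called lower (adjusted p = 0.0123, limma).

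Among 39 measured kelch-like relatives of Klhl4, 1 fell (2.56%) and 4 rose (10.3%), beside 4.7% lower and 2.71% higher of all genes. The fall was that of Klhl5, a close relative of Klhl4, at 5.42, 5.17 and 5.37 on the c-kit-positive arrays and 6.01, 6.09 and 6.11 on the c-kit-negative arrays (-0.75 ± 0.13, SE, adjusted p = 0.0122, limma). It kept its call in all 12 alternatives, and its groups did not overlap. Klhl1, another close relative, was at 4.25, 4.11 and 4.28 on the c-kit-positive arrays and 4.29, 4.58 and 4.03 on the c-kit-negative arrays, and its groups overlapped (adjusted p = 0.813, limma). Klhl6 and Klhl2 did not pass but were called lower without c-kit-positive array 1 (adjusted p = 0.0177 and 0.03, limma).

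The kelch-like genes that rose were Ipp (difference 1.19), Klhl28 (0.91), Klhl13 (0.62), which serves a cullin 3 ligase of mitosis, and Klhl15 (0.59). Their adjusted p values lay between 0.0205 and 0.0429 (limma). With 1 array left out, 0, 0 and 2 rose without c-kit-positive arrays 1, 2 and 3, and 1 rose without any 1 of the c-kit-negative arrays. Klhl15 also did not pass with a trend and robust prior (0.0609). None of 9 genes of the cullin 3 ligase and its NEDD8 cycle passed. Cul3 itself was at 10.99, 11.06 and 11.02 on the c-kit-positive arrays and 10.997, 11.05 and 11.01 on the c-kit-negative arrays, a difference of 0.0042. Cops5, a subunit of the complex that removes NEDD8 and the member of smallest p, was at 10.01, 10.07 and 10.12 on the c-kit-positive arrays and 9.80, 9.80 and 9.81 on the c-kit-negative arrays (adjusted p = 0.266, limma).

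The 3 measured relatives of Rasgrp3 did not pass limma's test. Rasgrp1, known from T cells, was at 5.37, 5.19 and 5.63 on the c-kit-positive arrays and 5.34, 5.28 and 4.99 on the c-kit-negative arrays. Rasgrp2, known from platelets, was at 6.83, 6.73 and 7.17 on the c-kit-positive arrays and 6.42, 7.08 and 7.13 on the c-kit-negative arrays. Rasgrp4, known from mast cells, differed by -0.01, and the groups of all 3 genes overlapped. Of 10 other exchange factors for Ras and Rap, 1 fell (10%), beside 4.7% lower of all genes. That was Rapgef5, at 4.17, 4.50 and 4.03 on the c-kit-positive arrays and 6.14, 6.24 and 6.45 on the c-kit-negative arrays (-2.04 ± 0.17, SE, adjusted p = 0.000231, limma). Rapgef3 was also called lower without c-kit-negative array 2 (adjusted p = 0.0274, limma).

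Of 9 Ras and Rap GTPase genes only Rap2a passed (11.1% lower, beside 4.7% of all genes), with a difference of -0.96 ± 0.20 (SE, adjusted p = 0.026, limma). It did not pass without c-kit-positive array 2 or 3 or any 1 of the c-kit-negative arrays, when its adjusted p ran from 0.0629 to 0.0858. Rap1a and Rap1b, substrates of Rasgrp3, differed by -0.28 and -0.38 (adjusted p = 0.281 and 0.172, limma). None of 4 measured Raf and MEK kinase genes passed, and Map2k1 had the smallest p, at 7.59, 6.76 and 7.07 on the c-kit-positive arrays and 7.46, 7.68 and 7.52 on the c-kit-negative arrays.

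Genes that supply or remove diacylglycerol, the lipid that recruits Rasgrp3, numbered 14, of which 6 fell (42.9%) and 1 rose (7.14%), beside 4.7% lower and 2.71% higher of all genes. Plcg1, a phospholipase C activated by receptor tyrosine kinases, was at 7.32, 7.41 and 7.07 on the c-kit-positive arrays and 8.29, 8.51 and 8.07 on the c-kit-negative arrays (-1.03 ± 0.17, SE, adjusted p = 0.00756, limma). Dgkh, a kinase that consumes diacylglycerol, was at 5.26, 5.13 and 4.78 on the c-kit-positive arrays and 6.96, 7.10 and 6.08 on the c-kit-negative arrays (-1.65 ± 0.27, SE, adjusted p = 0.00833, limma). Plce1 and Plcb1, both phospholipases C, had adjusted p values of 0.0223 and 0.0358 (limma). Plce1 did not pass without c-kit-positive array 1 or 2 or c-kit-negative array 2 or 3. Plcb1 passed without c-kit-negative array 2 and did not pass without any other single array. The falls numbered 2, 2 and 3 without c-kit-positive arrays 1, 2 and 3, and 3, 4 and 3 without c-kit-negative arrays 1, 2 and 3. The rise was lost without any array but c-kit-positive array 2. Of 6 protein kinase C genes, which the same lipid activates, Prkch (-1.74 ± 0.28, SE, adjusted p = 0.00732, limma) and Prkce (-1.01 ± 0.18, SE, adjusted p = 0.0127, limma) fell, and both kept their call in all 12 alternatives.

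Ptprm has 2 measured relatives with a MAM domain. Ptprk was at 7.89, 7.56 and 7.42 on the c-kit-positive arrays and 8.13, 8.36 and 8.42 on the c-kit-negative arrays (-0.68 ± 0.17, SE, adjusted p = 0.0454, limma). It passed without c-kit-positive array 1 and did not pass without any other single array (adjusted p from 0.0685 to 0.133). It also did not pass with quantile normalization (0.0507) or with a trend and robust prior in limma (0.0518). Ptpru was at 5.40, 5.49 and 5.73 on the c-kit-positive arrays and 5.34, 5.52 and 5.53 on the c-kit-negative arrays, and the groups overlapped.

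Of 17 other receptor phosphatases, 5 fell and 0 rose, beside 4.7% of all genes lower. Ptprb, the vascular phosphatase that opposes Tie2 signalling, was at 5.66, 5.08 and 5.45 on the c-kit-positive arrays and 8.76, 9.07 and 8.70 on the c-kit-negative arrays (-3.45 ± 0.19, SE, adjusted p = 3.55e-05, limma). Ptprd differed by -2.61 ± 0.16 (SE, adjusted p = 6.12e-05, limma), Ptprg by -1.77 ± 0.19 (SE, adjusted p = 0.000917, limma) and Ptprs by -0.78 ± 0.14 (SE, adjusted p = 0.0118, limma). These 4 kept their call in all 12 alternatives. The remaining fall, of Ptprj (-0.83, adjusted p = 0.0273, limma), did not pass with the mean of its probe sets (-0.50, adjusted p = 0.162), nor without c-kit-positive array 1 or 2 or c-kit-negative array 1 or 2. Ptpre, which did not pass, was called higher without c-kit-positive array 3 and under median centring, quantile normalization or the filter on dim genes.

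Of 9 cadherins and catenins, the junction proteins with which MAM phosphatases associate, 5 fell (55.6%) and 1 rose (11.1%), beside 4.7% lower and 2.71% higher of all genes. Cdh5, which is counted among the endothelial markers below as well, was lower by 4.69 on the log2 scale (adjusted p = 3.99e-05, limma). Cdh2, or N-cadherin, was at 4.66, 4.99 and 4.96 on the c-kit-positive arrays and 7.45, 7.35 and 7.57 on the c-kit-negative arrays (-2.59 ± 0.15, SE, adjusted p = 4.07e-05, limma). Jup, or plakoglobin, differed by -1.36 ± 0.20 (SE, adjusted p = 0.00456, limma). Cdh1, or E-cadherin, rose, at 7.78, 7.78 and 7.80 on the c-kit-positive arrays and 6.48, 6.85 and 6.57 on the c-kit-negative arrays (1.15 ± 0.14, SE, adjusted p = 0.00216, limma). These 4 calls and the fall of Ctnnb1 (beta-catenin, adjusted p = 0.00821, limma) held in all 12 alternatives. The remaining fall, of Ctnnd1 (p120 catenin, adjusted p = 0.0236, limma), did not pass without c-kit-positive array 3 or any 1 of the c-kit-negative arrays (adjusted p from 0.0633 to 0.0767).

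Tmem255b, the measured relative of Tmem255a, was at 5.66, 5.81 and 5.57 on the c-kit-positive arrays and 5.89, 5.88 and 6.05 on the c-kit-negative arrays. Its groups did not overlap, and the difference of -0.26 ± 0.14 did not pass (SE, adjusted p = 0.318, limma).

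Position on the chromosome was another property that the choice of genes did not use. In the RefSeq gene order of GRCm38.p6 the nearest measured gene on each side gave 12 neighbours, of which 2 were called, beside 7.41% of all genes. Both flank Rasgrp3 on chromosome 17. Ltbp1, which stores latent TGF-beta in the matrix, was lower, at 5.56, 5.70 and 6.04 on the c-kit-positive arrays and 6.88, 6.47 and 6.99 on the c-kit-negative arrays (-1.02 ± 0.19, SE, adjusted p = 0.0154, limma). Fam98a, on the other side, was higher by 0.67 ± 0.15 (SE, adjusted p = 0.0296, limma). Ltbp1 did not pass without c-kit-positive array 1 or 2 or c-kit-negative array 1 or 3. Fam98a passed without c-kit-negative array 3 and did not pass without any other single array.

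The neighbours of the other 5 genes did not pass. Gng11 lies beside Gngt1, another farnesylated gamma subunit gene of chromosome 6, known from rod photoreceptors. Gngt1 was at 3.21, 3.40 and 3.25 on the c-kit-positive arrays and 3.07, 3.55 and 3.09 on the c-kit-negative arrays, and the groups overlapped (adjusted p = 0.902, limma). The neighbours of Tmem255a, Zbtb33 and Atp1b4, differed by 0.11 and -0.04, and those of Klhl4, Dach2 and Ube2dnl1, by -0.03 and 0.13. Those of Ptprm, Themis3 and Lrrc30, differed by 0.06 and 0.26, Bet1, the other neighbour of Gng11, by 0.25, and Dspp, beside Sparcl1, by 0.31. Nudt9, beside Sparcl1 on chromosome 5, was at 7.22, 7.82 and 8.11 on the c-kit-positive arrays and 7.95, 8.02 and 7.93 on the c-kit-negative arrays. Its difference was -0.25, and its groups overlapped (adjusted p = 0.568, limma).

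On the same arrays 5 of the 7 marker lists had lower means in c-kit-positive cells, and the germ cell and leukocyte lists had higher means. The median difference over the genes of a list was -1.30 for mesenchyme, -0.75 for macrophage, -0.27 for platelet and -0.06 for erythroid markers. The lower mean of the erythroid list was thus not shared by most of its genes to a like degree. Calls in these lists stand beside 4.7% lower and 2.71% higher of all genes (limma, adjusted p under 0.05). All 18 endothelial markers fell, with list means of 5.76, 6.01 and 5.89 on the c-kit-positive arrays and 8.31, 8.45 and 8.40 on the c-kit-negative arrays and a median difference of -2.27. Of 12 mesenchyme markers 7 fell and 0 rose, with list means of 5.21, 5.27 and 5.14 against 6.30, 6.59 and 6.51. Germ cells at this stage carry c-kit. Of 14 germ cell markers 12 rose and 0 fell, with list means of 8.13, 7.98 and 8.01 against 6.64, 6.68 and 6.81.

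**Figure D4:**
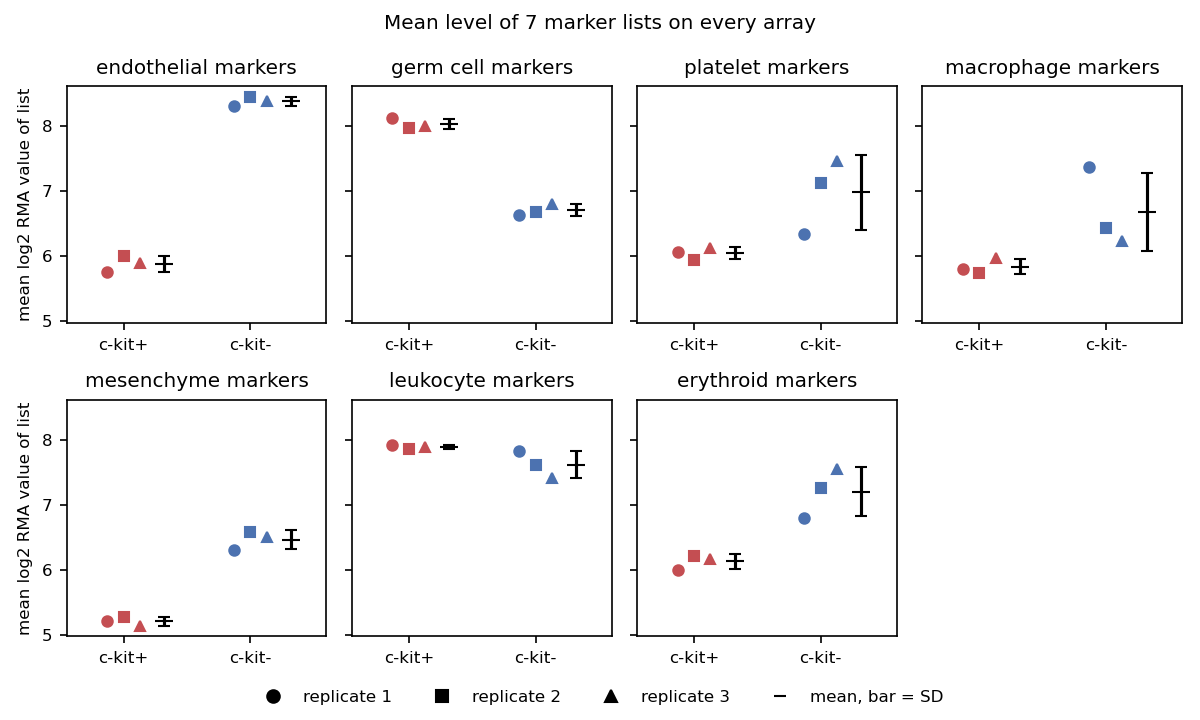
Mean log2 RMA value over the measured genes of each of 7 marker lists (vertical axis) on the 3 c-kit-positive arrays (red, left) and the 3 c-kit-negative arrays (blue, right), with symbols for replicates and a bar for the mean ± SD (n = 3). The 3 values of each population were apart for all 7 lists, c-kit-positive lower for 5 and higher for germ cell and leukocyte markers (by as little as 7.86 against 7.83 for leukocyte markers), and the c-kit-negative arrays were more spread for platelet, macrophage and erythroid markers.

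Gng11 is known to be expressed in platelets too, which carry CD31. Of 10 platelet markers 3 fell (30%) and 0 rose, beside 4.7% lower and 2.71% higher of all genes. Only 1 fell without c-kit-positive array 1 or c-kit-negative array 2 or 3. List means were 6.06, 5.95 and 6.13 on the c-kit-positive arrays and 6.35, 7.13 and 7.47 on c-kit-negative arrays 1, 2 and 3. Gng11 had the same order of arrays in the c-kit-negative cells, at 8.35, 8.48 and 8.56, over a range of 0.21 against 1.12 for the list. The erythroid list had that order too. An order of 3 arrays can arise by chance, and the part of platelets in the Gng11 values was not tested. Erythroid markers, of which 3 of 8 fell and 0 rose, had list means of 6.0, 6.22 and 6.17 on the c-kit-positive arrays and 6.80, 7.26 and 7.55 on the c-kit-negative arrays, and 1 was called higher without c-kit-positive array 1.

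Macrophage and leukocyte markers varied between c-kit-negative arrays in another way. Of 13 macrophage markers 3 fell (23.1%) and 0 rose, beside 4.7% lower and 2.71% higher of all genes, and 1 fell without c-kit-positive array 1. Their list means were 5.80, 5.75 and 5.97 on the c-kit-positive arrays and 7.37, 6.43 and 6.24 on the c-kit-negative arrays. Of 12 leukocyte markers 4 rose and 0 fell, with list means of 7.92, 7.86 and 7.89 against 7.83, 7.62 and 7.41. The 4 rises became 1, 2 and 2 without c-kit-positive arrays 1, 2 and 3 and 1 without any 1 of the c-kit-negative arrays. Among the 6 genes the c-kit-negative arrays lay within 0.26 of each other, while the macrophage list ran over 1.13. The part of these other cells in the differences of the 6 genes was not tested.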

How the data were processed

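RNA of 6 sorted samples was measured on 1 array each, 3 per population. As the labels' protocols have it, 5 ng of RNA was amplified (NuGEN Ovation Pico), turned into sense cDNA and labelled with biotin, and amplification from so little RNA can distort ratios. The deposited values are log2 values that the authors made with RMA, per the submitters' processing notes. The range of 1.22 to 13.7 shows the log2 scale. Of RMA, neither version nor settings stood in the sources used here.

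Of 34760 probe sets, 21640 had 1 gene symbol in the platform annotation, 1321 had several and 11799 were not listed and stayed unnamed. Entrez identifiers matched the RefSeq gene table for 21553 of the 21640. For the 954 genes with several probe sets the one with the highest mean was used, and each of the 6 genes had 1. List genes without such a probe set were not analysed here.

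Populations were compared over all 19937 genes in R 4.3.3 by limma 3.58.1 without block or filter, tested on simulated data. Its lmFit and eBayes gave two-sided p-values, adjusted by Benjamini-Hochberg over all genes (threshold 0.05), and the SE of each difference, c-kit-positive minus c-kit-negative. The 6 genes, the 6 lists of relatives, 12 lists of partners and 7 marker lists were chosen with earlier results of these data known. All relatives and neighbours could be named, up to 4 called genes of smallest p per partner list (where none passed, the one of smallest p), and the 3 genes of nearest pattern. The choice of nearest genes leaves out numbered or clone-named gene models, microRNAs and small nucleolar RNAs. Its filter by name also drops any gene whose symbol is capital letters followed by digits, or starts with C and a digit. Cul3, Rap1a, Rap1b, Ptpre, Ptprj, Ctnnb1, Ctnnd1 and Rapgef3 were named after their values were seen. Exact permutation of 3 against 3 arrays cannot give a p below 0.1 and was not used. The number of arrays limits the precision. The alternatives left out each array in turn or the dimmest 30 percent of genes, averaged probe sets, centred arrays on their medians, used quantile normalization, gave limma's prior a trend and robust setting, or took the replicate number as a block. Figures were drawn with matplotlib 3.10.9.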

Additional observations from a re-analysis of the deposited data

How the results depend on the processing

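The differences of the 6 genes kept their direction in every alternative run. With 1 array left out they ran from -5.64 to -5.52 for Tmem255a, -4.75 to -4.63 for Klhl4, -3.97 to -3.80 for Ptprm, -2.90 to -2.80 for Rasgrp3, -2.65 to -2.41 for Gng11 and -4.82 to -3.85 for Sparcl1. With 1 array left out, genes higher numbered 276 to 369 (540 with all arrays), relatives higher 0 to 2 (6), partners higher 1 to 3 (4), partners lower 19 to 21 (25) and neighbours called 0 to 1 (2). Relatives lower ran from 4 to 7 (5), above 5 without c-kit-positive replicate 1. The cause of these changes was not tested. The labels do not say whether arrays of the same replicate number are paired. Deviations of same-numbered arrays from their group means correlated at 0.00, 0.02 and 0.06, and those of differently numbered arrays at -0.06 to 0.04. Same-numbered arrays thus shared little deviation, which does not settle whether they came from the same embryos. In the fit with the replicate number as a block, relatives higher numbered 3, partners higher 2 and neighbours called 1, and the cause was not tested. That fit gave 879 genes lower and 476 higher. Among the genes named above, it ended the calls of Ptprk (adjusted p = 0.0908, limma), Gng13 (0.0851), Klhl15 (0.0671), Klhl13 (0.0594), Plcb1 (0.0591), Gna15 (0.0583), Ptprj (0.0569) and Fam98a (0.0518), while Klhl6 passed (0.0262). Calls of some partner genes not named here changed in that fit too. The median difference of all genes was 0.072, and 0.095 after median centring. Probe sets near background limit the folds of dim genes.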
